A study of Mus musculus with 4 samples.

Results

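Expression of 8 genes of lipid storage and cholesterol efflux was followed across the cell classes of mouse forebrain in a permanent stroke model, middle cerebral artery occlusion (MCAO). The genes were Apoe, Clu, Plin2, Abca1, Abcg1, Lpl, Soat1 and Nr1h3, which are 8 of the 46983 genes counted. They were chosen by name, with earlier results of these same libraries known, so every value given here for them is a description. None is the outcome of a test.

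Nuclei were profiled with droplet-based single-nucleus RNA sequencing in 4 libraries of 3-month-old male C57Black/6 mice, a sham control and the libraries labelled day 1, day 3 and day 7 after MCAO, in which the artery was coagulated and cut. Each library came from 3 forebrain hemispheres that were pooled, so each group held 1 library with no replicate, no p-value was computed, and all intervals are 95% intervals that cover counting error only. The labels leave the control unclear, since the condition reads sham control while the surgical protocol names cortex of uninjured mice. The labels of day 3 and day 7 are open to doubt, since a plot in the study's supplement appears to show the sizes of these samples the other way round. This was not resolved here. The deposited labels were kept, and each statement on day 3 or day 7 refers to the library so labelled.

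The libraries held between 23285489 and 42963698 UMIs (unique molecular identifiers, each standing for 1 captured RNA molecule), and the calling and doublet removal left between 1018 (day 1) and 3099 (day 3) nuclei. At day 1 a nucleus held a median of 11029.5 UMIs, against 5497.5 to 7034 in the others. Classes were named from RNA markers alone and are written as microglia-like and so on. The sham control held 88 microglia-like nuclei and the day 1, day 3 and day 7 libraries 44, 187 and 94, and all 14 of their markers were detected in each library. The 13 astrocyte and 12 oligodendrocyte markers were likewise detected in every library in the class of that name. Levels are in CPM, for which the summed UMIs of a gene in a class were scaled to 1000000 UMIs of that class. Fewer transcripts per nucleus and fewer of the nuclei that express a gene cannot be told apart in such a sum.

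In brain, astrocytes secrete lipoprotein particles that carry cholesterol on apolipoproteins, and microglia and invading macrophages take up lipid-rich debris, such as myelin, after injury. Cholesterol taken up in excess is either esterified and stored in lipid droplets or exported to particles outside the cell, and the liver X receptors, which sense oxidised sterols, switch on the export genes. Apoe and Clu encode secreted lipid carriers, Plin2 a protein that coats lipid droplets, Abca1 and Abcg1 sterol exporters, Lpl a lipase that releases fatty acids from lipoproteins, Soat1 the enzyme that esterifies cholesterol for storage, and Nr1h3 the liver X receptor alpha.

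In the GRCm38 build with the GENCODE vM21 annotation, Apoe (ENSMUSG00000002985) lies on chromosome 7 from 19696109 to 19699188, Clu (ENSMUSG00000022037) lies on chromosome 14 from 65968483 to 65981547, Plin2 (ENSMUSG00000028494) lies on chromosome 4 from 86648386 to 86670060 and Abca1 (ENSMUSG00000015243) lies on chromosome 4 from 53030787 to 53159895. Abcg1 (ENSMUSG00000024030) lies on chromosome 17 from 31057675 to 31117988, Lpl (ENSMUSG00000015568) lies on chromosome 8 from 68880491 to 68907448, Soat1 (ENSMUSG00000026600) lies on chromosome 1 from 156424525 to 156474331 and Nr1h3 (ENSMUSG00000002108) lies on chromosome 2 from 91184061 to 91202834. All 8 are protein-coding. Reads over exons and introns were counted without a stated strand, so the counts of Soat1, Nr1h3 and Abcg1, which overlap noncoding genes of vM21, may hold reads of these, while the other 5 overlap no gene of vM21. The counts were made with the older GENCODE vM8, whose overlaps were not examined.

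Promoter windows from RefSeq (GRCm38.p6) were at hand for 5 of the 8 genes, Apoe, Plin2, Abca1, Soat1 and Nr1h3. The 250 bases before the start are shown for Apoe, Plin2 and Abca1, since these were the 3 genes at least 2-fold above sham control in microglia-like nuclei both at day 3 and at day 7. The windows lie at chr7:19699189-19699438 for the outermost of 3 RefSeq starts of Apoe, at chr4:86670060-86670309 for Plin2 and at chr4:53159896-53160145 for Abca1, all read 5′ to 3′ on the minus strand. Capitals mark matches, on either strand, to any of 5 short motifs, which are the nuclear receptor hexamer AGGTCA, the E-box CACGTG, the GC box GGGCGG, the TATA box TATAAA and the AP-1 site TGACTCA.
Apoe: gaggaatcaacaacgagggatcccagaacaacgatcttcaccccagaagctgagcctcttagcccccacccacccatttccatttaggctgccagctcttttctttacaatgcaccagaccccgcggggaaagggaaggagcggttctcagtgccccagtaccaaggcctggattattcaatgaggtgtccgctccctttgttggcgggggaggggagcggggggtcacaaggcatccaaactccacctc
Plin2: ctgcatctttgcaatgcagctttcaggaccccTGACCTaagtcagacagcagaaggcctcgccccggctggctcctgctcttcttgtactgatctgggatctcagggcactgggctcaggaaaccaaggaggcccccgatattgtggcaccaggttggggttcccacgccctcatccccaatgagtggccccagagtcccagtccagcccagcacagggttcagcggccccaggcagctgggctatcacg
Abca1: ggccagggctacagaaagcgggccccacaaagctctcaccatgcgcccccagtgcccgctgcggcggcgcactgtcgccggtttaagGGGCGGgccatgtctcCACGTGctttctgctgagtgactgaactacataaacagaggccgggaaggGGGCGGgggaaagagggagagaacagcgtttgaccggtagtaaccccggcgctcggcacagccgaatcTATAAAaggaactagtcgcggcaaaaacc
The Abca1 window held TATAAA at position -29 from the start, GGGCGG at -163 and -97, and CACGTG at -147. The Plin2 window held AGGTCA, on the opposite strand, at -218. The Apoe window shown held none of the 5 motifs, while the window of a downstream Apoe start held TATAAA on both strands, overlapping, at -100 and -96. An exact direct repeat of AGGTCA with 4 bases between its copies, the idealised element of liver X receptors, which overlaps the hexamer motif, was in none of the windows of the 5 genes. Copies that differ from these letters were not searched for, so the windows may still hold such an element. Over all 32851 windows of this length, the repeat was in 0.0152%, AGGTCA in 14.0%, CACGTG in 6.02%, GGGCGG in 32.7%, TATAAA in 12.4% and TGACTCA in 4.46%. A match describes the letters and does not show binding, and the lack of one says nothing of elements elsewhere or of elements with other letters.

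In sham control, Apoe was highest in astrocyte-like nuclei at 3884 CPM (3728 to 4045), above ependymal-like nuclei at 2565 CPM (2313 to 2836) and endothelial-like nuclei at 2317 CPM (2083 to 2570.1), whose intervals overlapped each other and that of an unnamed cluster. Choroid-plexus-like nuclei followed at 1526 CPM, and further down the intervals of precursor-like, oligodendrocyte-like and microglia-like nuclei overlapped, at 628, 626 and 549.6 CPM. Glutamatergic-neuron-like nuclei held 79.9 CPM (73.0 to 87.3), and 55.9 CPM would be reached there if each nucleus carried the median content of a low-count droplet, a measure of the free RNA in the suspension. In microglia-like nuclei the same estimate was 267 CPM, a large part of their Apoe in sham control. Clu followed a like order, with 555 CPM (497 to 618) in astrocyte-like nuclei, and its interval overlapped those of ependymal-like and fibroblast-like nuclei and of an unnamed cluster.

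The exporters were distributed otherwise. Abca1 was highest in microglia-like nuclei at 354 CPM (278 to 444), but the interval overlapped those of ependymal-like and mural-like nuclei, and astrocyte-like nuclei held 205 CPM (170.4 to 245). Abcg1 was highest in oligodendrocyte-like nuclei at 145 CPM (119 to 174) and microglia-like nuclei at 109.9 CPM (69.7 to 165), which overlapped, while astrocyte-like nuclei held only 18.3 CPM (9.15 to 32.8). Soat1 was highest in astrocyte-like nuclei at 175 CPM (143 to 212), with an interval that overlapped those of choroid-plexus-like, microglia-like, fibroblast-like and mural-like nuclei, while oligodendrocyte-like nuclei held 18.0 CPM (9.82 to 30.1). Lpl was highest in striatal-projection-neuron-like nuclei at 19.0 CPM (14.6 to 24.2), with an interval that overlapped those of several classes of 9 UMIs or fewer, such as ependymal-like, precursor-like, interneuron-like and endothelial-like nuclei, and was not detected in the 88 microglia-like nuclei of sham control, where the floor of 3 UMIs used for a count of 0 is 14.3 CPM and the exact interval of 0 UMIs reaches 17.6 CPM. Plin2 was under 50 CPM in every class, and the intervals of the highest classes, mural-like, endothelial-like, precursor-like and microglia-like, overlapped. Nr1h3 was at most 25.9 CPM outside the 12 mural-like nuclei, which held 4 UMIs.

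**Figure D1:**
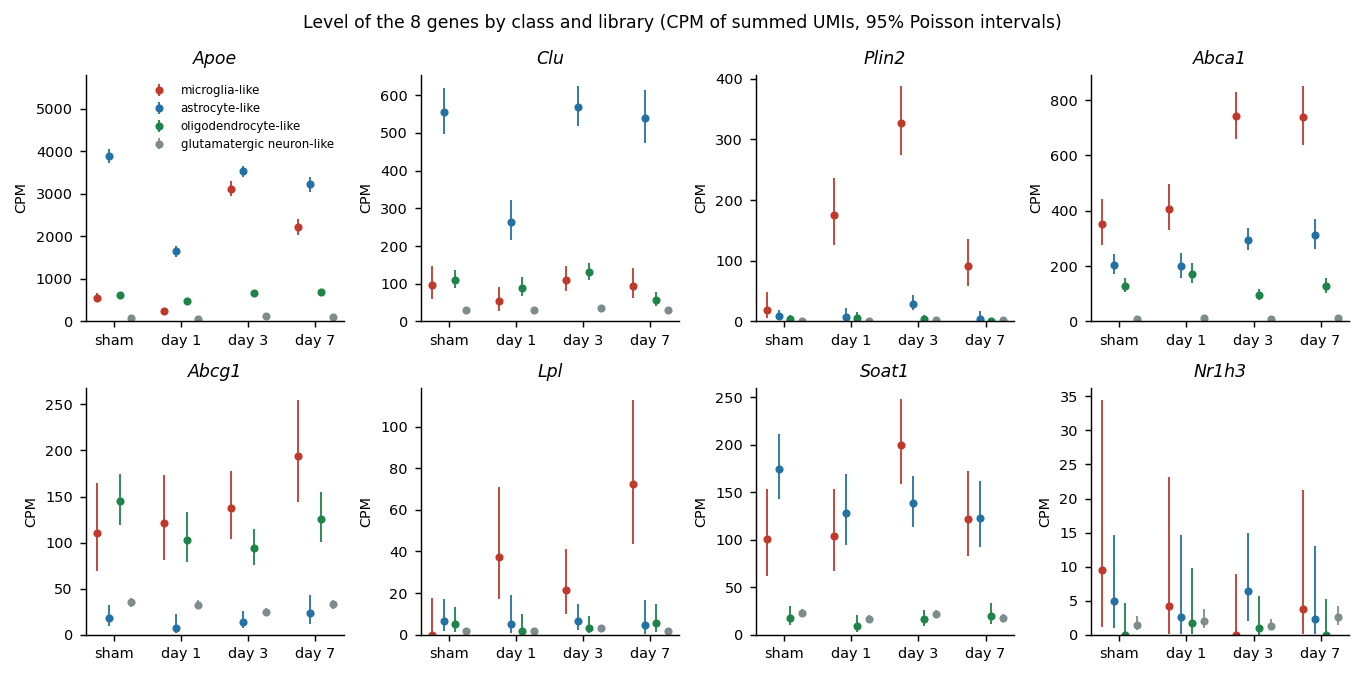
Level of each gene (y axis, CPM of summed UMIs) in each library (x axis) for 4 classes, with exact 95% Poisson intervals. In the microglia-like class, Plin2 stood at 19.1 CPM in sham control and at 328 CPM at day 3, and Apoe in the astrocyte-like class was lowest at day 1, at 1645 CPM.

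In microglia-like nuclei the lipid droplet gene Plin2 was higher in all 3 libraries after injury, and Apoe and Abca1 were higher at day 3 and day 7. Plin2 gave 4 UMIs in sham control and 42, 136 and 24 UMIs in the day 1, day 3 and day 7 libraries, which is 19.1 CPM in sham control, 175 CPM at day 1, 328 CPM at day 3 and 91.4 CPM at day 7. The 3 libraries after injury were above sham control and their intervals did not overlap that of sham control. The ratio to sham control was 9.15 (95% interval 3.32 to 35.1) at day 1, 17.1 (6.54 to 63.8) at day 3 and 4.78 (1.64 to 19.0) at day 7, wide because the sham sum was 4 UMIs. By the mean over nuclei of their own CPM the day 3 ratio was 9.47. Free RNA would give at most 5.12 CPM of Plin2 in this class. Of all Plin2 UMIs in called nuclei, microglia-like nuclei held 11.8% in sham control and 60.9%, 54.4% and 41.4% in the day 1, day 3 and day 7 libraries.

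Apoe in microglia-like nuclei was lower than in sham control at day 1 and higher at day 3 and day 7. It stood at 549.6 CPM in sham control, 246 CPM at day 1, 3114 CPM at day 3 and 2216 CPM at day 7, from 115 UMIs in sham control and 59, 1293 and 582 UMIs in the day 1, day 3 and day 7 libraries. Day 1 was below sham control with a ratio of 0.447 (95% interval 0.321 to 0.617), whereas day 3 and day 7 were above it with ratios of 5.67 (4.68 to 6.92) and 4.03 (3.30 to 4.97). Free RNA would give 139.8 CPM at day 1 and 435 CPM at day 3. The 14 microglia markers summed to 10175 CPM in sham control, 6952 CPM at day 1, 10384 CPM at day 3 and 9316 CPM at day 7. They too were lowest at day 1, and whether this bears on the Apoe value was not tested. The day 1 value depended on how nuclei were weighted, since the mean over nuclei of their own CPM put the ratio at 0.631, which is not past the 2-fold call. Subtracting free RNA moved the ratios away from 1, to 0.223 at day 1 when done in proportion, and to 9.92 at day 3 and 6.69 at day 7 when done per nucleus.

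Of the exporters, Abca1 stood at 354 CPM in sham control, 408 CPM at day 1, 742 CPM at day 3 and 739 CPM at day 7. Sham control and day 1 overlapped, day 3 and day 7 overlapped each other and lay above both, and the ratios to sham control were 1.15 (0.845 to 1.58), 2.10 (1.62 to 2.74) and 2.09 (1.59 to 2.77). By the mean over nuclei of their own CPM the day 3 ratio was 1.95, under the 2-fold call. At day 1, 1 nucleus held 36 of the 98 Abca1 UMIs. Abcg1 stood at 109.9 CPM in sham control, 121 CPM at day 1, 137 CPM at day 3 and 194 CPM at day 7, all 4 intervals overlapped, and the day 7 ratio of 1.77 (1.06 to 3.03) was the only one whose interval left out 1. For cholesterol esterification, Soat1 stood at 100.4 CPM in sham control, 104 CPM at day 1, 199.9 CPM at day 3 and 122 CPM at day 7, and day 3 was just below the 2-fold call at 1.99 (1.22 to 3.39), with 1 nucleus holding 14 of 83 UMIs. The call turned on the setting, with 2.06 under TMM scaling and 2.84 in nuclei over 2000 UMIs.

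Lpl gave 0 UMIs in sham control and 9, 9 and 19 UMIs in the day 1, day 3 and day 7 libraries in microglia-like nuclei, and with the sham sum set to 3 UMIs the day 7 level of 72.3 CPM (43.6 to 113) was at least 5.05-fold higher. Over the alternatives this bound ran from 2.19 to 6.60, lowest with nuclei thinned to 1000 UMIs. At day 1 and day 3 the sums of 9 UMIs were under the 10 UMIs a call needed. Clu stood at 95.6 CPM in sham control, 54.1 CPM at day 1, 111 CPM at day 3 and 95.2 CPM at day 7, where free RNA alone would give 70.1, 43.6, 107 and 66.1 CPM, so its level there could not be told from free RNA. Nr1h3 gave 2 UMIs in sham control and 1, 0 and 1 UMIs in the day 1, day 3 and day 7 libraries, and no difference in the liver X receptor alpha was detectable at this depth.

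**Figure D2:**
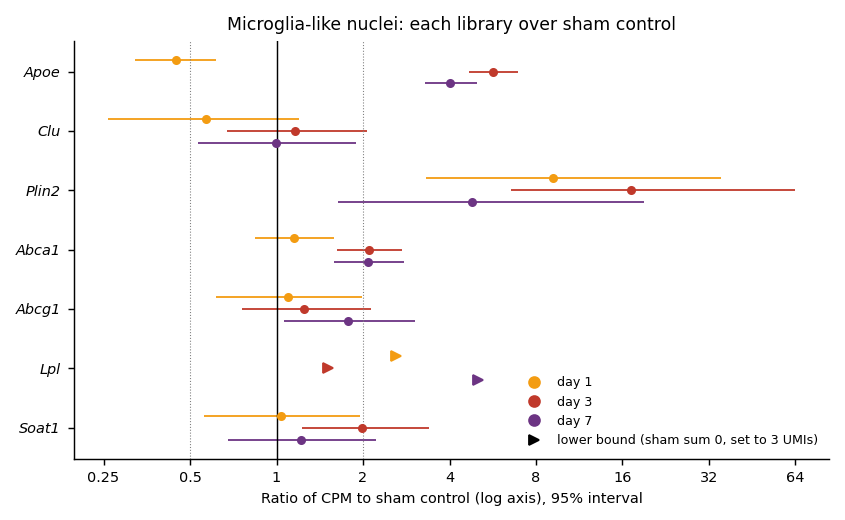
Ratio of CPM to sham control in microglia-like nuclei on a log axis, with exact conditional 95% intervals, for each library after injury. Dotted lines mark a ratio of 0.5 and of 2, arrows are lower bounds for Lpl, and Nr1h3 is left out for its low counts. Apoe lay below 1 at day 1 and at 5.67 at day 3.

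A gene was counted as higher or lower where its ratio was at least 2 or at most 0.5 and both libraries together held at least 10 UMIs. In microglia-like nuclei, 1 of the 8 was higher at day 1 (Plin2) and 1 lower (Apoe), with 6 of the 8 holding enough UMIs. Over all genes that held enough, 11.0% were higher and 9.31% lower. At day 3, 3 of 6 were higher (Apoe, Plin2 and Abca1) and 0 lower, against 8.45% and 5.80% of all genes. At day 7, 4 of 7 were higher (the same 3 and Lpl) and 0 lower, against 8.78% and 7.96%. The median log2 ratio of the genes counted was 0.0946 at day 1, 1.03 at day 3 and 1.06 at day 7, while over all genes it was 0.0240, 0.0111 and -0.00611. Since the genes were chosen with these libraries known, nothing is read from the counts themselves.

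Mitochondrial genes took 0.652% of the UMIs of microglia-like nuclei in sham control and 0.641%, 1.59% and 0.520% in the day 1, day 3 and day 7 libraries, highest at day 3, where Apoe and Plin2 were highest, but close to sham control at day 1 and lowest at day 7, when Plin2 was higher too. The part of this in the day 3 values was not tested. The summed level of 10 markers of border or infiltrating macrophages in microglia-like nuclei was 105 CPM in sham control, 154 CPM at day 1, 364 CPM at day 3 and 312 CPM at day 7. Between 4 and 7 of the 10 were detected, and Ly6c2, Lyve1 and Itgal were at 0 in all 4 libraries. At least 1 UMI of the list was held by 6 of 88 nuclei in sham control, by 6 of 44 at day 1, 42 of 187 at day 3 and 10 of 94 at day 7. The leading markers at day 3 were F13a1 and Mrc1, found in 19 nuclei each.

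At day 3 the nuclei with a macrophage marker held Apoe at 7736 CPM (7221 to 8278), against 1482 CPM (1349 to 1625) in the 145 nuclei without one. Plin2 stood at 572 CPM (439 to 734) and 241 CPM (189 to 303), and Soat1 at 434 CPM (319 to 577) and 117 CPM (82.1 to 162). These 3 pairs did not overlap. Abca1, at 932 CPM (759 to 1133) and 674 CPM (586 to 773), differed less, by intervals that just overlapped. The 42 nuclei held 838 of the 1293 Apoe UMIs of the class at day 3. Without the marked nuclei in either library, the ratios to sham control at day 3 were 2.69 (2.17 to 3.36) for Apoe, 23.2 (6.20 to 195) for Plin2, 1.75 (1.34 to 2.32) for Abca1 and 1.13 (0.636 to 2.06) for Soat1, so Apoe and Plin2 stayed past the 2-fold call while Abca1 no longer did. At day 7 they were 3.59 (2.90 to 4.47) for Apoe, 8.71 (2.14 to 76.4) for Plin2 and 1.96 (1.49 to 2.60) for Abca1, which was then just under the 2-fold call as well. Plin2 without the marked nuclei rests on 2 UMIs in sham control, and with these set to the floor of 3 UMIs its ratios were 15.5 at day 3 and 5.81 at day 7. At day 7 the 10 marked nuclei held Apoe at 5189 CPM (4231 to 6299) against 1975 CPM (1803 to 2160.2) in the others, while for Plin2, Abca1 and Soat1 the intervals of the pair overlapped. In sham control and at day 1, with 6 marked nuclei each, Abca1 ran the other way, with 0 UMIs in the marked nuclei of sham control against 74 UMIs in the others and 111 CPM (40.9 to 243) against 494 CPM (398 to 606) at day 1. These intervals did not overlap, while those of Apoe, Plin2 and Soat1 did. At day 1, however, 1 nucleus without a marker held 36 of the 92 Abca1 UMIs of its group. The day 1 difference without that nucleus was not computed. A nucleus without a UMI of these markers may still be a macrophage, and the marked nuclei were somewhat deeper at day 3, with medians of 2106 and 1640 UMIs. How much of the class values the macrophage content accounts for was not tested.

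**Figure D3:**
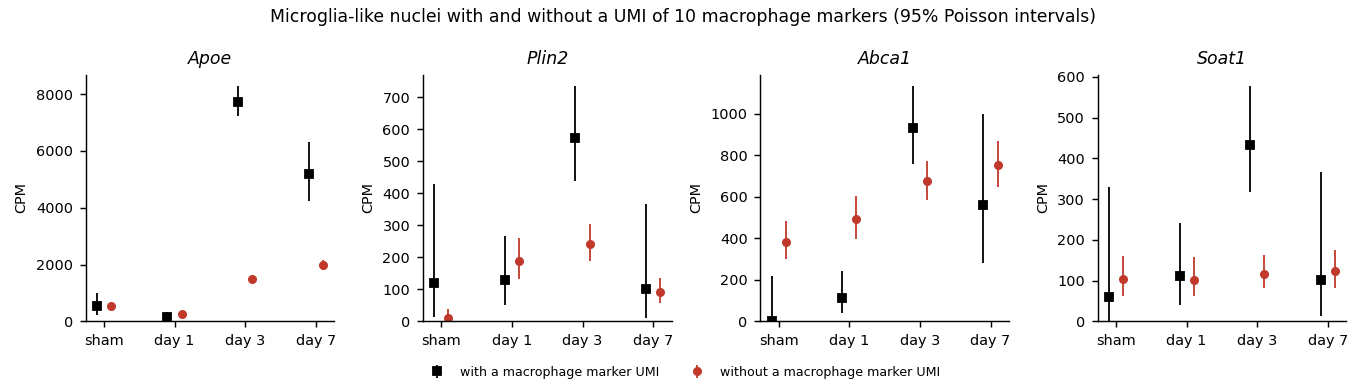
Level of 4 genes (y axis, CPM) in microglia-like nuclei with (black squares) and without (red circles) a UMI of 10 macrophage markers, by library (x axis), with exact 95% Poisson intervals. The marked groups hold 6, 6, 42 and 10 nuclei, and at day 3 Apoe, Plin2 and Soat1 were higher in them.

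Oligodendrocyte markers were concentrated in a few of these nuclei. Of the 413 microglia-like nuclei, 30 formed a cluster of their own with oligodendrocyte markers between 9635 and 13647 CPM per library, against 570.2 to 923 CPM in the other microglia-like nuclei. Without this cluster the same genes passed the 2-fold call on each day. Whether it holds doublets was not tested. Astrocyte markers summed to 932 CPM in microglia-like nuclei of sham control, 429 CPM at day 1, 807 CPM at day 3 and 1013 CPM at day 7, with 9 to 13 of the 13 detected. They were thus lower at day 1, as Apoe was, and close to sham control at day 3 and day 7, when Apoe was higher. In the same order, the 10 precursor markers, of which 7 to 10 were detected, summed to 306, 675, 604 and 472 CPM. The 8 markers of neurons of any kind, detected in each library, summed to 6294, 8226, 5435 and 5833 CPM, highest at day 1, and free RNA would give 1746, 989, 2443 and 1685 CPM. The part of these 3 lists in the values of the 8 genes was not tested.

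Shares of nuclei were compared at a matched depth of 1000 UMIs per nucleus, which no nucleus fell below, as the share expected over all ways to draw that many UMIs. In microglia-like nuclei of sham control 2.45% would then hold Plin2, with a Clopper-Pearson interval from 0.335% to 8.24%. Day 1 stood at 17.1% (from 7.48% to 31.5%), day 3 at 15.2% (from 10.4% to 21.2%) and day 7 at 8.75% (from 3.91% to 16.4%). At full depth the shares were 3.41%, 43.2%, 23.5% and 17.0%. Glutamatergic-neuron-like nuclei, taken as background, held Plin2 in at most 0.279% at matched depth. Day 3 lay above sham control by intervals that did not overlap, while the intervals of day 1 and day 7 reached into that of sham control, and those of the 3 libraries after injury overlapped.

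Abca1 was expected in 28.3%, 27.1%, 47.1% and 51.9% of microglia-like nuclei at matched depth, in the order sham control, day 1, day 3, day 7, against 45.5%, 56.8%, 64.7% and 73.4% at full depth. Apoe was expected in 43.8%, 26.9%, 65.2% and 70.1%, with 7.72% in glutamatergic-neuron-like nuclei of sham control and an interval from 10.8% to 15.3% in those of day 3. At least 2 of the 8 genes were expected in 30.6% of microglia-like nuclei in sham control and in 33.0%, 54.8% and 57.7% in the day 1, day 3 and day 7 libraries. At full depth at day 3, Soat1 was found in 65.9% of the 44 nuclei with Plin2 and in 16.8% of those without, which had medians of 2409.5 and 1632 UMIs, a pair chosen after its values were seen. At day 1 Soat1 was in 42.1% of the 19 nuclei with Plin2 and in 28% of those without. At day 7 it was in 37.5% of the 16 nuclei with Plin2 and in 26.9% of those without, and in sham control in 0 of 3 with Plin2 and 20% of the others. Nuclei with Plin2 were the deeper ones in the 3 libraries after injury.

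**Figure D4:**
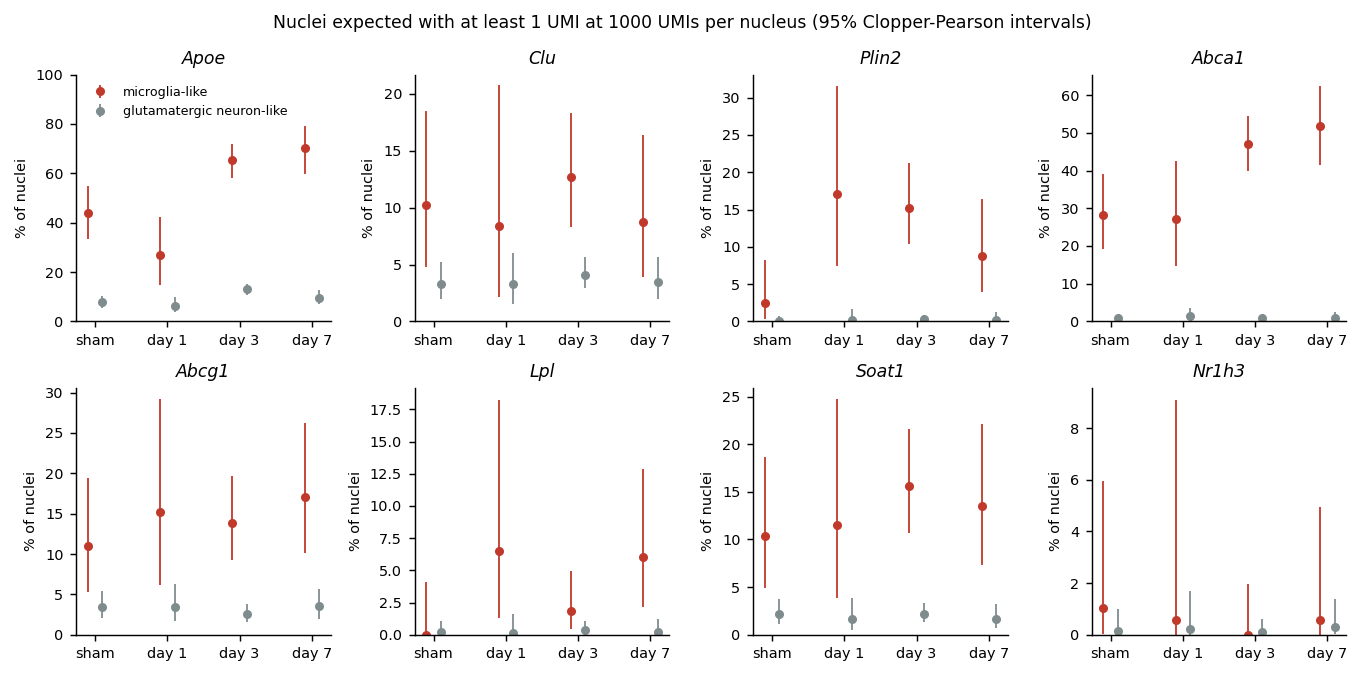
Percent of nuclei (y axis) expected to hold at least 1 UMI of each gene with every nucleus thinned to 1000 UMIs, by library (x axis), in microglia-like (red) and glutamatergic-neuron-like (grey) nuclei, with exact 95% Clopper-Pearson intervals. For Abca1 the microglia-like share was 28.3% in sham control and 51.9% at day 7, while the grey points stayed at or under 1.44%.

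Between the libraries after injury, Apoe in microglia-like nuclei was 12.7 (9.76 to 16.7) times the day 1 level at day 3, and the day 7 level was 0.712 (0.644 to 0.785) times that of day 3. Plin2 was 1.87 (1.32 to 2.71) times the day 1 level at day 3 and 0.279 (0.173 to 0.433) times the day 3 level at day 7. Abca1 was 1.82 (1.44 to 2.30) and 0.996 (0.828 to 1.20) times the earlier level in the same pairs, and Lpl 0.578 (0.203 to 1.64) and 3.34 (1.44 to 8.38). These ratios share libraries with those to sham control, and the order of day 3 and day 7 turns round if their labels were exchanged.

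In astrocyte-like nuclei the secreted carriers were lower at day 1 and close to sham control later. Apoe stood at 3884 CPM in sham control, 1645 CPM at day 1, 3523 CPM at day 3 and 3219 CPM at day 7, so only day 1 lay far from the others, with a ratio of 0.424 (0.387 to 0.463). Clu stood at 555 CPM in sham control, 265 CPM at day 1, 569 CPM at day 3 and 540.5 CPM at day 7, with a day 1 ratio of 0.477 (0.378 to 0.597). Much of the Apoe lay in single nuclei, since 1 of 140 nuclei held 17.4% of the Apoe UMIs of sham control and 1 of 56 held 20.1% at day 1. With the UMIs of the gene in its top nucleus of each library left out, and the class totals kept as they were, the day 1 ratios were 0.410 for Apoe and 0.445 for Clu. Mitochondrial genes took 1.22% of the UMIs of astrocyte-like nuclei in sham control and 0.742%, 2.02% and 2.52% in the day 1, day 3 and day 7 libraries, lowest at day 1 as Apoe and Clu were. Apoe in free RNA was lower at day 1 as well, at 1762 CPM (1732 to 1792) against 2069 CPM (2040.1 to 2098) in sham control. The 8 markers of neurons of any kind summed to 4704 CPM in astrocyte-like nuclei of sham control, 7727 CPM at day 1, 2954 CPM at day 3 and 4510 CPM at day 7, highest at day 1. The part of any of these in the Apoe and Clu values was not tested. With the mean over nuclei of their own CPM, the day 1 ratios were 0.649 for Apoe and 0.648 for Clu, which are not past the 2-fold call.

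Plin2 in astrocyte-like nuclei gave 5 UMIs in sham control and 3, 23 and 2 UMIs in the day 1, day 3 and day 7 libraries, with a day 3 ratio of 3.55 (1.32 to 11.9). With nuclei thinned to 1000 UMIs, which puts the sham sum at the floor of 3 UMIs, it was 1.44 and no longer past the call. Abca1 stood at 205 CPM in sham control, 199 CPM at day 1, 296 CPM at day 3 and 312 CPM at day 7, with ratios of 1.44 (1.15 to 1.81) at day 3 and 1.52 (1.18 to 1.96) at day 7, but by the mean over nuclei of their own CPM these were 1.15 and 0.969. Soat1 was between 123 and 175 CPM, highest in sham control. Abcg1 gave 11 UMIs in sham control and 3, 11 and 10 UMIs in the day 1, day 3 and day 7 libraries, with a day 1 ratio of 0.429 (0.0768 to 1.62). By the mean over nuclei of their own CPM it was 0.790, with the day 1 level raised to the floor. At matched depth 0.275% of nuclei were expected with Abcg1 at day 1, against 0.988% in sham control. Lpl and Nr1h3 gave at most 5 UMIs in any library. In all, 0 of 5 genes with enough UMIs were higher and 3 lower at day 1 (Apoe, Clu and Abcg1, the last with an interval that held 1), against 5.88% and 8.99% of all genes. At day 3, 1 of 6 was higher (Plin2) and 0 lower, against 5.43% and 5.98%. At day 7, 0 were higher and 0 lower, against 5.89% and 8.53%. Microglia markers summed to 148, 223, 388 and 554 CPM in astrocyte-like nuclei of the 4 libraries, and their part in the Plin2 value was not tested.

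In oligodendrocyte-like nuclei 1 gene passed the 2-fold call over the 3 libraries. Apoe stood at 626 CPM in sham control, 489 CPM at day 1, 679 CPM at day 3 and 682 CPM at day 7, and free RNA would give between 213 and 425 CPM. Abcg1, the exporter they share with microglia-like nuclei, stood at 145 CPM in sham control, 103 CPM at day 1, 93.8 CPM at day 3 and 125 CPM at day 7, and was below sham control at day 3 with a ratio of 0.647 (0.486 to 0.860). Abca1 stood at 129.5 CPM in sham control, 173 CPM at day 1, 96.9 CPM at day 3 and 127 CPM at day 7. Clu was at 57.0 CPM at day 7 against 110.3 CPM in sham control, a ratio of 0.516 (0.346 to 0.760), but free RNA alone would give 66.8 CPM at day 7. Plin2, Lpl and Nr1h3 had at most 4 UMIs in any library. At day 1, 0 of 5 genes were higher and 1 lower (Soat1, from 5 and 14 UMIs with an interval that held 1), against 5.76% and 6.37% of all genes. Thinned to 1000 UMIs, the Soat1 ratio was 1.11, but only because the day 1 sum was raised to the floor of 3 UMIs. The share of nuclei expected with Soat1 at that depth stayed lower at day 1, at 0.888% against 1.69% in sham control. None of the 5 was past 2-fold at day 3, against 5.36% higher and 3.63% lower over all genes, nor at day 7, against 4.25% and 6.90%.

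Among the smaller classes, endothelial-like nuclei held Plin2 at 25.9 CPM (7.05 to 66.3) in sham control, 64.3 CPM (43.1 to 92.4) at day 3 and 108 CPM (59.0 to 181) at day 7, with 40, 75 and 21 nuclei, and day 1 had only 6 nuclei. The day 7 ratio was 4.17 (1.31 to 17.4). Abca1 in the same nuclei was 104 CPM in sham control and 184 CPM at day 3, with intervals that overlapped. Apoe in the unnamed cluster led by heat-shock and mitochondrial genes was 2387 CPM in sham control, 839 CPM at day 1, 2849 CPM at day 3 and 3569 CPM at day 7. In striatal-projection-neuron-like nuclei, the neuronal class with most Lpl, Lpl stayed between 18.1 and 23.5 CPM over the 4 libraries, and all intervals overlapped.

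**Figure D5:**
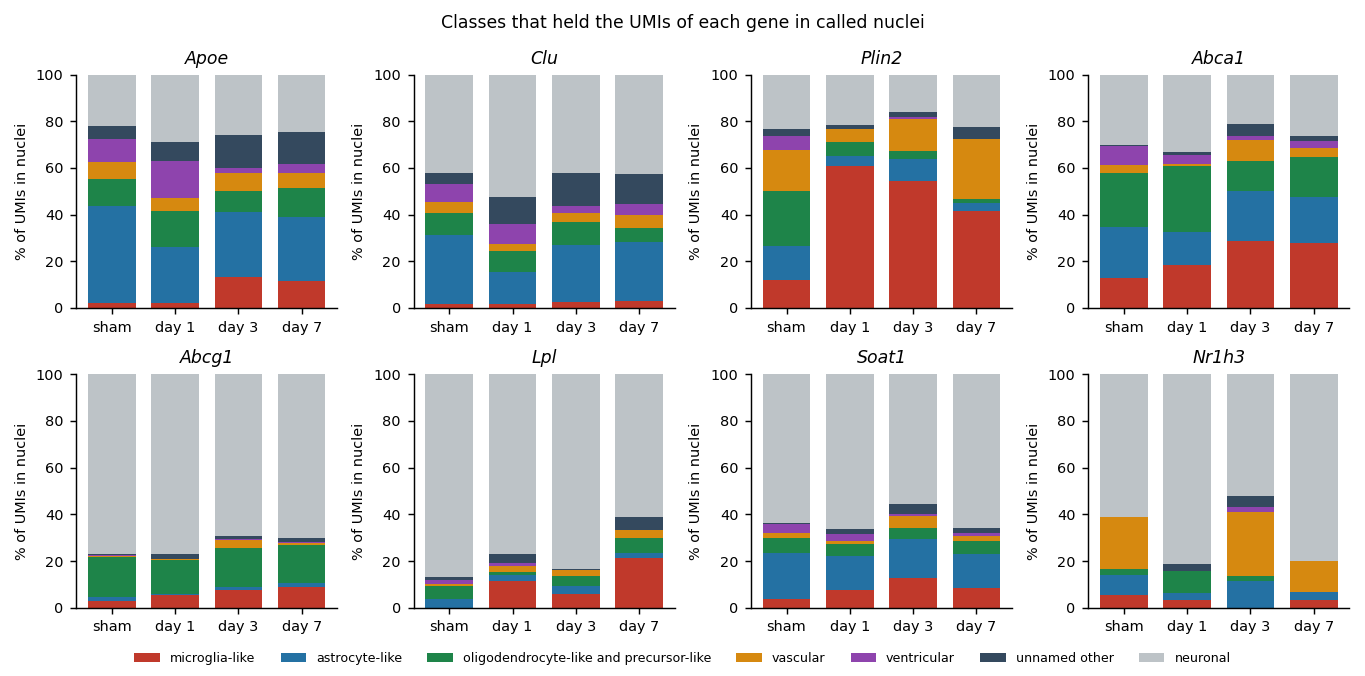
Percent of the UMIs of each gene in called nuclei (y axis) held by each group of classes, by library (x axis). Vascular stands for endothelial-like, mural-like and fibroblast-like nuclei, ventricular for ependymal-like and choroid-plexus-like nuclei. Microglia-like nuclei held 60.9% of Plin2 at day 1 and 21.1% of Lpl at day 7.

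A further 96 genes of lipid pathways, in 6 lists, give the surroundings of the 8. In microglia-like nuclei 7 of 50 with enough UMIs were higher and 6 lower at day 1, 8 and 8 of 59 at day 3, and 7 and 5 of 53 at day 7. The shares over all genes with enough UMIs were 11.0% higher and 9.31% lower at day 1, 8.45% and 5.80% at day 3, and 8.78% and 7.96% at day 7. The genes of these lists were, like the 8, picked with earlier results known. Lipoproteins and their receptors had 3 of 8 higher at day 1, 3 of 10 at day 3 and 1 of 9 at day 7, and none lower. The scavenger receptor Msr1 had ratios of 10.3 (4.51 to 29.0) at day 1, when 1 nucleus held 40.8% of its UMIs, and 3.61 (1.53 to 10.4) at day 3. The fatty acid receptor Cd36 had 31 UMIs against 0 UMIs in sham control at day 3, 58.1% of them in 1 nucleus. The receptor Lrp8 had 13 UMIs against 0 UMIs. Cholesterol synthesis had none higher, with 1 of 8 lower at day 1, 2 of 8 at day 7 and 4 of 10 at day 3, among them the sterol oxidase Msmo1 at 0.252 (0.0676 to 0.809). The median log2 ratio of that list was -0.456 at day 1, -0.828 at day 3 and -0.391 at day 7. The other 4 lists had at most 4 genes higher and at most 2 lower on any day.

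The fatty acid binding protein Fabp5 was at 0.0792 (0.00184 to 0.545) at day 1 and 2.24 (1.15 to 4.79) at day 3, the acyl-CoA synthetases Acsl5 at 4.94 (1.43 to 26.3) at day 1, Acsl3 at 0.288 (0.105 to 0.735) at day 3 and Acsl6 at 5.05 (1.49 to 26.6) at day 7. In triglyceride storage and lipolysis, the acyltransferase Dgat1 was at 0.202 (0.0461 to 0.699) at day 3 and the lysosomal lipase Lipa at 3.51 (1.30 to 11.8) at day 7. The liver X receptor partner Rxra was at 0.378 (0.141 to 0.977) at day 3, and the transporter Abca2 at 3.78 (1.04 to 20.7) at day 1 and 4.25 (1.22 to 22.8) at day 7. Apod, a lipocalin that binds lipids, was at 2.43 (1.51 to 4.06) at day 1. The sterol hydroxylase Ch25h had 10 UMIs against 0 UMIs in sham control at day 7.

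In astrocyte-like nuclei 5 of 73 pathway genes were higher and 8 lower at day 1, 6 and 4 of 81 at day 3, and 2 and 7 of 73 at day 7. Over all genes the shares were 5.88% and 8.99%, 5.43% and 5.98%, and 5.89% and 8.53%, and nothing is read from the counts. Cpt1a, which brings fatty acids into mitochondria, was lower at day 1 at 0.212 (0.0811 to 0.467) and at day 7 at 0.430 (0.229 to 0.765). Apod was at 2.64 (1.80 to 3.93) at day 1 and 2.29 (1.62 to 3.31) at day 3, with 42.7% of its day 3 UMIs in 1 nucleus. Fabp7, a fatty acid binding protein of radial glia and astrocytes, was at 2.63 (1.65 to 4.34) at day 3, the lipoprotein receptor Vldlr at 2.24 (1.06 to 5.14), the microglial receptor Trem2 at 8.48 (1.23 to 365) and the sterol reductase Dhcr7 at 0.325 (0.123 to 0.776). Microglia markers in this class summed to 148 CPM in sham control and 388 CPM at day 3, and their part in the Trem2 value was not tested. Day 1 also had Mylip, which marks lipoprotein receptors for breakdown, at 0 UMIs against 11, the sterol carrier Npc2 at 0.456 (0.191 to 0.982) and the droplet protein Plin4 at 4.19 (1.01 to 24.5). At day 7 Lss, an enzyme of cholesterol synthesis, was at 6.52 (1.82 to 35.4), Fabp5 at 0.435 (0.220 to 0.807) and the receptor chaperone Lrpap1 at 0.475 (0.257 to 0.838).

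In oligodendrocyte-like nuclei 3 of 70 were higher and 6 lower at day 1, 7 and 0 of 75 at day 3, and 3 and 5 of 72 at day 7, where all genes gave 5.76% and 6.37%, 5.36% and 3.63%, and 4.25% and 6.90%. Acaca, which makes the building unit of fatty acids, stood at 1208 CPM at day 1 against 469 CPM in sham control, a ratio of 2.57 (2.26 to 2.93) that rests on 691 and 366 UMIs. Day 1 also had the lipase Pnpla2 at 3.03 (1.32 to 7.55), its inhibitor G0s2 at 0.105 (0.00247 to 0.698) and Mgll, a lipase of monoglycerides, at 0.470 (0.204 to 0.992). At day 3 Mgll was at 2.06 (1.32 to 3.27), the acyltransferase Dgat2 at 2.24 (1.10 to 4.94), Nsdhl, of cholesterol synthesis, at 2.24 (1.10 to 4.94) and Fabp7 at 4.64 (1.93 to 13.5). At day 7 Dgat2 was at 2.32 (1.09 to 5.28) and the fatty acid synthase Fasn at 0.324 (0.118 to 0.775).

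The genes whose level over the 33 class and library sums with at least 20 nuclei was most like each of the 8 were found by Pearson correlation of log2(CPM + 10) among 13461 genes. The sums share libraries and classes and are not independent, so the coefficients are descriptions. Nearest to Apoe were Ndrg2 (0.911), Sash1 (0.908) and Cst3 (0.908), and to Clu Ndrg2 (0.937), Mt1 (0.935) and Gja1 (0.926). Nearest to Plin2 were AU020206 (0.882), Cyba (0.880) and Ctsl (0.875), and to Abca1 1700112E06Rik (0.949), Crlf3 (0.932) and Lamp2 (0.926). Abcg1 was nearest to Elmo1 (0.802), Kcnk13 (0.795) and Fam134b (0.776), Lpl to Ccm2 (0.696), Impg1 (0.681) and C79798 (0.669), Soat1 to Smo (0.890), Tmem164 (0.849) and Prkcd (0.844) and Nr1h3 to Zic1 (0.893), Zic2 (0.881) and Nbl1 (0.879).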

How the data were processed

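The deposited files held raw UMI counts per gene and barcode, which the authors made with STARsolo of STAR 2.7.3a on GRCm38 with the GENCODE vM8 annotation, counting exonic and intronic reads, and no normalization was applied. All 6794880 possible barcodes were listed, so nuclei were called again here. Barcodes over 1000 UMIs were set against the profile of low-count droplets with a re-implementation of the emptyDrops method (10000 Monte Carlo draws, false discovery rate 0.001), and Scrublet scores in scanpy 1.11.5 marked doublets. This left 7806 of 7952 called nuclei, with 146 doublets removed. Between 52.2% and 60.5% of the UMIs of a library lay in called nuclei, and 9 barcodes occurred in more than 1 library.

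Nuclei were clustered in Seurat 5.3.0 (SCTransform, anchor integration, 30 principal components, resolution 0.8), with the 8 genes and the listed pathway genes left out of the features. Of 32 clusters, 6 stayed unnamed, and the others were named where their marker score led the next class by 0.5 on the log2 scale. UMIs were summed per class and library. Levels carry exact Poisson intervals, ratios exact conditional binomial intervals and shares Clopper-Pearson intervals, all at 95%. These cover counting error only, and not the spread between animals. A ratio was called from 2-fold on with at least 10 UMIs in both libraries together, sums under 3 UMIs were set to 3, and no fold was given where both were at or under it. The free RNA profile came from droplets of 100 to 1000 UMIs. The ratio and its call were tried on counts drawn from the Poisson model that the intervals assume. These counts lack the clumping of UMIs in single nuclei, so only the computation was checked.

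The 8 genes, the pathway lists and the markers were chosen with earlier results of these data known. The rule for naming took all 8, up to 4 called pathway genes per glial class, day and direction whose interval left out 1, ranked by the bound nearest to 1, and the 3 genes most alike each of the 8. Of the pathway genes that this rule named, 2, both lower, are not reported here, for reasons unrelated to their values. Chosen after seeing the data were the lower limit of 100 UMIs for free RNA droplets, the split by macrophage markers, the removal of the cluster with oligodendrocyte markers, the minimum of 5 nuclei for ordering classes, the promoters and motifs shown, the rules for results to look at again, the rule on folds at the floor and the use of expected values for thinning, taken up because 2 single draws gave different orders of some shares and ratios. The strand setting of the counting is not given in the sources used here.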

Additional observations from a re-analysis of the deposited data

Results flagged for a closer look

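Apoe in microglia-like nuclei stood out because it was past the 2-fold call in opposite directions on different days. Its ratio to sham control was 0.447 at day 1, 5.67 at day 3 and 4.03 at day 7. With 1 library per group the difference between days was not tested.

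Free RNA, read from droplets of 100 to 1000 UMIs that enter no comparison of classes, held several of the genes above their level in sham control, by intervals that did not overlap. Apoe was at 2069 CPM (2040.1 to 2098) in sham control, 2601 CPM (2578 to 2625) at day 3 and 2559.8 CPM (2527 to 2593) at day 7. Clu was at 543 CPM (528 to 558), 642 CPM (630.0 to 654) and 574 CPM (559 to 589.6), and Abca1 at 34.0 CPM (30.4 to 38.0), 47.5 CPM (44.3 to 50.8) and 50.2 CPM (45.7 to 55.0) in the same libraries. At day 3 alone, Plin2 was at 30.7 CPM (28.1 to 33.4) against 6.10 CPM (4.62 to 7.90) in sham control, Lpl at 29.4 CPM (26.9 to 32.1) against 22.1 CPM (19.2 to 25.4) and Soat1 at 39.6 CPM (36.7 to 42.6) against 31.7 CPM (28.2 to 35.5). Below sham control by such intervals were Apoe at day 1, at 1762 CPM (1732 to 1792), and Nr1h3 at day 7, at 1.84 CPM (1.07 to 2.94) against 4.39 CPM (3.15 to 5.95). The intervals cover counting error only, and the differences between libraries were not tested.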

How the results depend on the processing

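No paired analysis was possible because each group held 1 library, and for the same reason no replicate could be left out. Of 264 recomputed counts of genes past the call, 239 stayed within 1.5 times the count reported. These include counts of 0 that stayed at 0, so the share says little of the genes that were called. The mean of CPM per nucleus and thinning, nearly the same by construction, entered as separate settings. In microglia-like nuclei, the count of higher genes at day 1 was 2 (Plin2 and Lpl) at resolution 1.5 and with no minimum of UMIs. The count of lower genes at day 1 was 0 with the mean of CPM per nucleus, thinned to 1000 UMIs or in nuclei over 2000 UMIs, and 2 (Apoe and Clu) with free RNA subtracted in either way, at resolution 1.5 or at a fold of 1.5. The count of higher genes at day 3 was 5 at resolution 1.5, and that of lower genes 1 (Clu) with free RNA subtracted per nucleus. At day 7 the count of higher genes was 2 (Apoe and Abca1) with at least 30 UMIs. In astrocyte-like nuclei, the count of lower genes at day 1 was 0 with the mean of CPM per nucleus or thinned, that of higher genes at day 3 was 0 thinned or with at least 30 UMIs, and that of higher genes at day 7 was 1 (Abca1) at a fold of 1.5. In both settings with 0 lower genes at day 1, the day 1 level of Abcg1 was under the floor. In oligodendrocyte-like nuclei, the count of lower genes at day 1 was 0 with the mean of CPM per nucleus, thinned, without integration or with at least 30 UMIs. It was 1 at day 3 (Abcg1) at a fold of 1.5 and 1 at day 7 (Clu) at that fold or with free RNA subtracted in either way. The cause was not tested. Over the alternatives the ratios in microglia-like nuclei ranged from 6.57 to 12.1 at day 1, 8.26 to 20.7 at day 3 and 2.90 to 5.84 at day 7 for Plin2, from 0.223 to 0.631, 2.69 to 9.92 and 3.46 to 6.69 for Apoe, and from 1.75 to 2.51 at day 3 and 1.96 to 2.36 at day 7 for Abca1. With nuclei thinned, the ratio of Soat1 in oligodendrocyte-like nuclei at day 1 came to 1.11 only through the floor, to which the day 1 sum was raised. Thinning gave no ratio for Abcg1 in astrocyte-like nuclei at day 1, since both sums were then at or under 3 UMIs. As the expectation over all draws, a thinned ratio equals by construction that of the mean CPM per nucleus, except where a sum was set to the floor. Low sums limit Plin2, Lpl and Nr1h3 in astrocyte-like and oligodendrocyte-like nuclei and Lpl and Nr1h3 in microglia-like nuclei.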
